A study of Mus musculus with 21 samples.

Results

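Aminoacyl-tRNA synthetases are the enzymes that load each tRNA with its amino acid, and their genes were followed through the 21 mouse RNA sequencing libraries of the study. The genes were chosen by name alone: a letter for the amino acid, the ending "ars" and an optional 1 or 2, with Farsa, Farsb and Eprs added. By this rule 37 genes were found, 20 for cytosolic enzymes and 17, with names ending in 2, for mitochondrial enzymes, among 21161 gene names in the cell-state table and 55291 in the lactate table. In the first table stand 3 libraries each of 2-cell-like cells (2CLCs, stem cells in a state that resembles the 2-cell embryo), epiblast stem cells (EpiSCs, a primed form of pluripotency), mouse embryonic fibroblasts (MEFs) and embryonic stem cells (ESCs), all labelled WT for treatment and OG2 for cell line. In the second stand 3 libraries each of OG2 ESCs with 0, 60 or 80 mM sodium lactate. How the 2CLCs were obtained, how long lactate was given and whether another sodium salt was tested are not given in the sources used here, and MEFs carry the same line name as the stem cells.

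Values are the deposited FPKM (fragments per kilobase of transcript, scaled to the mapped fragments of the library), so levels can be set side by side between genes per unit of length. The number of reads is unknown. Fold changes were taken as differences of log2(FPKM + 1) and carry their standard error (SE); for genes of low level this scale gives too small a change. The test was limma, with p-values adjusted by Benjamini-Hochberg over all genes tested, and a gene was called higher or lower at an adjusted p under 0.05. All 37 genes passed the filter on low values in both tables. Each library title carries the mark br with a replicate number, but the labels do not state separate cultures for the 3 libraries of a group. The p-values therefore rest on a spread between libraries that may be technical.

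The labels were checked against marker genes. The summed level of 7 markers of the 2-cell-like state was 10701 to 11913 FPKM in 2CLCs and 4.31 to 4.42 FPKM in ESCs. Primed markers summed to 460.5 to 606 FPKM in EpiSCs and 28.4 to 29.9 FPKM in ESCs, fibroblast markers to 894 to 926 FPKM in MEFs and 1.21 to 1.69 FPKM in ESCs. Markers of naive pluripotency, a list of 5 genes, summed to 1001 to 1014 FPKM in ESCs and 230 to 256 FPKM in 2CLCs. Their sum was 27.5 to 37.3 FPKM in EpiSCs and 12.8 to 13.5 FPKM in MEFs. Among replicates, EpiSC replicate 1 stood apart, with correlations of 0.9733 and 0.9726 to the other EpiSC libraries, which had 0.9955 between themselves. In bulk RNA, fewer cells of a type and less RNA per cell cannot be told apart.

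Each synthetase recognises an amino acid and the tRNAs that carry it, joins them at the cost of ATP, and so sets the meaning of the genetic code. The cytosol and the mitochondrion mostly use separate enzymes from separate nuclear genes. Gars and Kars are exceptions that serve both compartments, and mitochondria make glutaminyl-tRNA by way of the glutamyl enzyme and an amidotransferase. In the cytosol, 8 synthetase genes (Eprs, Iars, Lars, Mars1, Qars, Rars, Kars and Dars) encode enzymes of the multi-synthetase complex, held together by the scaffold proteins of Aimp1, Aimp2 and Eef1e1. Many cytosolic synthetase genes are targets of ATF4, the transcription factor of the amino acid response, which binds CEBP-ATF response elements. AARS and AARS2, the alanyl enzymes, have also been reported to transfer lactyl groups to proteins.

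Promoters are shown first because the core of such an element can be searched for in them, and the genes that hold it are followed through the comparisons below. A link between these letters and any change in level was not tested. The windows run from 250 bases before to 50 after a start base taken from RefSeq, build GRCm38.p6, and 27 of the 37 genes were matched. Those not matched include Cars, Hars, Hars2, Lars, Nars, Pars2, Rars, Vars and Wars. The letters searched were TGATGNAA on both strands. They occur in 1304 of 32851 windows of all genes (3.97%) and in 5 of 27 windows of synthetase genes (18.5%), which are 5 of 13 cytosolic and 0 of 14 mitochondrial genes. Sequences are written 5′ to 3′ on the strand of the gene, with the matched letters, or their complement read backwards, in capitals. Aars (chr8:111033592-111033891, plus strand) has the letters in 2 places and is shown whole, as is Iars (chr13:49681880-49682179, plus strand). Of Yars (chr4:129189866-129189952, plus strand), Gars (chr6:55037931-55038018, plus strand) and Tars (chr15:11399626-11399713, minus strand), the surroundings of the match are shown. The Aars window lies inside the gene, which begins at base 111027778 in RefSeq, and not around that base. The piece shown of Yars lies after base 129189734, where that gene begins, and its window is not centred there. A match is a string of letters and not a measured binding site.
Aars: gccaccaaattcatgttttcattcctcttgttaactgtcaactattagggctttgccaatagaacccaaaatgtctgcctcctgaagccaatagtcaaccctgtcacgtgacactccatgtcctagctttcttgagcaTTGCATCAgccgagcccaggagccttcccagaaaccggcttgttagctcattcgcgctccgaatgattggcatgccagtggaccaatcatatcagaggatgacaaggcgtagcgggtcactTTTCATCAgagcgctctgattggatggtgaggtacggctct
Iars: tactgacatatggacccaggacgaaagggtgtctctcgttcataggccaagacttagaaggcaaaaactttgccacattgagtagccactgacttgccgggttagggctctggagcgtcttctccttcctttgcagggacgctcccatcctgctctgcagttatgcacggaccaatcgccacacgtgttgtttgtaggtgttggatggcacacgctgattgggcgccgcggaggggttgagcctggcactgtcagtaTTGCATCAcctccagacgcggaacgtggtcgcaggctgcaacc
Yars: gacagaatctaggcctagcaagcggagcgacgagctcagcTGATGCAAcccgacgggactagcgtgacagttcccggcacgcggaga
Gars: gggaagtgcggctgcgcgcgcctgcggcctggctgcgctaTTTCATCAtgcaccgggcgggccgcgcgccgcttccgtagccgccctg
Tars: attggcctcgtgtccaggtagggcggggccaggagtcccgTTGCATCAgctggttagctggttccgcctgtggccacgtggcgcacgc

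As a group, the cytosolic genes stood far above the mitochondrial ones per length. In ESCs the cytosolic genes summed to 1966, 1944 and 1995 FPKM, and the mitochondrial genes to 289.9, 288 and 274 FPKM. Kars, the lysyl enzyme of both compartments, was the most abundant of all in ESCs, with 264, 259.6 and 269 FPKM, followed by Aars with 162, 159.8 and 163 FPKM and Gars, the glycyl enzyme, with 150.1, 149.7 and 150 FPKM. These 3 genes did not overlap in the ESC libraries. At the low end of the cytosolic genes was Wars, the tryptophanyl enzyme, with 46.4, 45.6 and 46.3 FPKM. Among mitochondrial genes, Wars2 was lowest in ESCs, at 1.42, 1.59 and 1.99 FPKM, and Nars2, the asparaginyl enzyme, had 2.45, 2.57 and 2.71 FPKM. Lars2 broke the order between compartments in 2CLCs, where its 98.7, 93 and 77.3 FPKM exceeded the 37.7, 36.4 and 35.7 FPKM of Lars. All 37 genes together held 0.34 to 0.352% of the summed FPKM in 2CLCs, 0.521 to 0.534% in EpiSCs and 0.3 to 0.31% in MEFs, against 0.536 to 0.547% in ESCs.

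**Figure D1:**
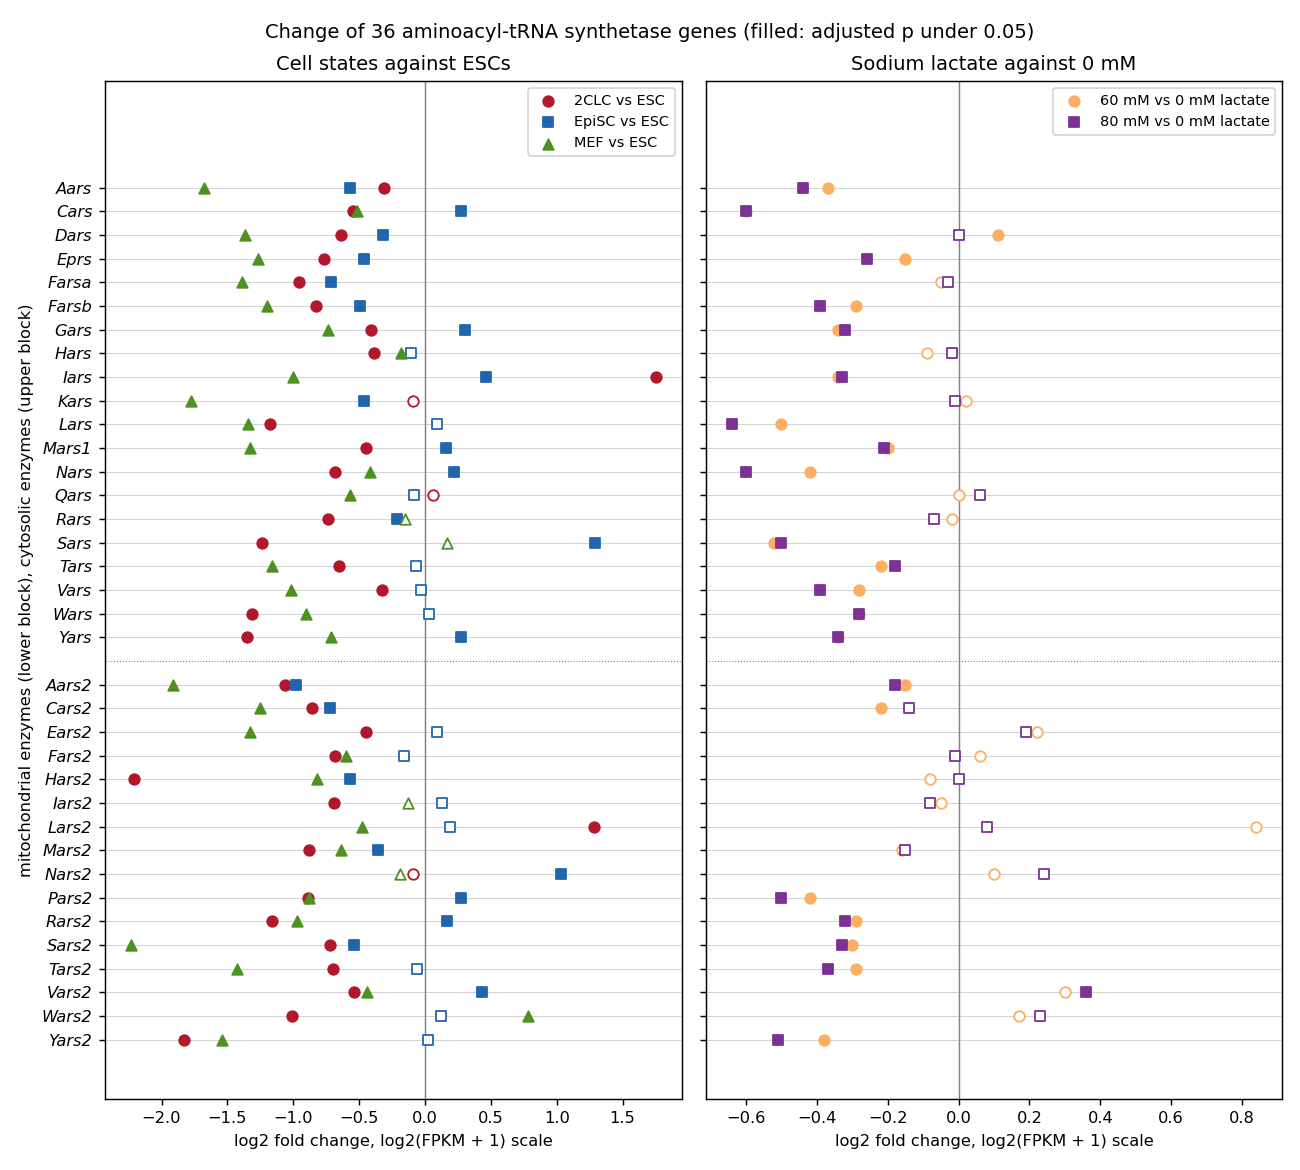
Log2 fold change (x axis, log2(FPKM + 1) scale) of 36 synthetase genes (y axis, cytosolic above the dotted line, mitochondrial below it) in 2CLCs, EpiSCs and MEFs against ESCs (left) and at 60 and 80 mM against 0 mM sodium lactate (right), 3 libraries a group. Filled points have an adjusted p under 0.05, and Iars and Lars2 are the 2 filled 2CLC points to the right of 0.

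Set against ESCs, 2CLCs had lower levels of most synthetase transcripts, with Iars, the cytosolic isoleucyl enzyme, and Lars2, the mitochondrial leucyl enzyme, higher. Of the 37 genes, 32 were called lower, against 56.4% of all 16358 genes tested, and 2 were called higher, against 20.1%. The median log2 fold change was -0.69 for the synthetase genes and -0.46 for all genes. On the deposited scale 17 of 20 cytosolic and 15 of 17 mitochondrial genes were lower. Summed FPKM was 518399 to 519915 in 2CLCs and 415173 to 416600 in ESCs, so the scale matters here. Under median-of-ratios scaling, with a median of 0.04 for all genes, 12 synthetase genes were higher and 12 lower, and their median was 0.07. Of all 16358 genes tested, 6213 were higher and 5122 lower under that scaling. Of the cytosolic genes 9 were then higher and 5 lower, and of the mitochondrial genes 3 were higher and 7 lower. Iars and Lars2 were higher under both scalings. The 12 genes lower under both were Aars2, Farsa, Hars2, Lars, Mars2, Pars2, Rars2, Sars, Wars, Wars2, Yars and Yars2.

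Iars had 287, 309 and 269 FPKM in 2CLCs, against 84.1, 84.9 and 86.5 FPKM in ESCs. Every 2CLC library was more than 3 times above every ESC library. The mean was 3.38-fold higher, and the log2 fold change was 1.75 ± 0.06 (adjusted p = 2.96e-10), or 2.2 relative to the median of all genes. Without Iars, the cytosolic genes summed to 1297 to 1304 FPKM in 2CLCs and 1859.5 to 1908 FPKM in ESCs. Iars held the highest level of any synthetase gene in 2CLCs, above Kars with 250.5, 247 and 246 FPKM there. Kars was not called between 2CLCs and ESCs, and neither was Qars, the glutaminyl enzyme, with 88.5, 86.8 and 79.9 FPKM in 2CLCs and 83.6, 77.8 and 82.9 FPKM in ESCs. Lars, the leucyl enzyme of the multi-synthetase complex, had 37.7, 36.4 and 35.7 FPKM in 2CLCs and 83.5, 82.8 and 86 FPKM in ESCs (log2 fold change -1.18 ± 0.0954, adjusted p = 4.48e-07). Under median-of-ratios scaling Kars (0.71, adjusted p = 8.84e-08) and Qars (0.86, adjusted p = 1.05e-07) were higher, while under quantile normalization Kars was lower (-0.49, adjusted p = 5.91e-07) and Qars higher (0.15, adjusted p = 0.0272). Of the 8 enzymes of the complex, 1 was higher, 5 were lower and 2 were not called on the deposited scale. Of all genes tested, 20.1% were higher and 56.4% lower on it. Under median-of-ratios scaling 4 of the 8 were higher, 1 was lower and 3 were not called. Of all 16358 genes, 6213 were then higher and 5122 lower. Among the scaffolds, Aimp2 (-1.19, adjusted p = 5.83e-07) and Eef1e1 (-1.02, adjusted p = 4.17e-06) were lower on the deposited scale and Aimp1 was not called. Under median-of-ratios scaling 1 scaffold was higher and 1 lower.

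The largest fall belonged to Hars2, the mitochondrial histidyl enzyme, with 2.1, 2.55 and 3 FPKM in 2CLCs, against 16, 14.6 and 15.5 FPKM in ESCs. All 2CLC libraries were far below all ESC libraries, and the log2 fold change was -2.21 ± 0.0973 (adjusted p = 2.5e-09). Hars, the cytosolic histidyl enzyme, lies head to head with Hars2, and their exons share 195 bases on opposite strands in GENCODE M21. Use of strand in the counting was not given in those sources, so reads from these bases cannot be told apart. Hars had 48.3, 48.2 and 44.1 FPKM in 2CLCs, against 60.4, 61.3 and 63.1 FPKM in ESCs, a log2 fold change of -0.39 ± 0.0482 that turned to 0.40 under median-of-ratios scaling.

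Both tyrosyl enzymes fell in 2CLCs. Yars2, the mitochondrial one, had 7.41, 9.02 and 7.58 FPKM in 2CLCs, against 30.8, 31.3 and 30.6 FPKM in ESCs (-1.83 ± 0.0988, adjusted p = 1.42e-08). Yars, the cytosolic one, had 22.3, 22.5 and 21.3 FPKM in 2CLCs, against 59.2, 56.4 and 57.3 FPKM in ESCs (-1.35 ± 0.052, adjusted p = 7.9e-10). Neither gene's groups overlapped. Wars had 20, 16.7 and 17.6 FPKM in 2CLCs, against 46.4, 45.6 and 46.3 FPKM in ESCs (-1.31 ± 0.0609, adjusted p = 4.09e-09). Sars, the cytosolic seryl enzyme, had 26.6, 24.8 and 29.3 FPKM in 2CLCs, against 63.9, 65.3 and 65.1 FPKM in ESCs (-1.24 ± 0.077, adjusted p = 4.66e-08). Wars2 was below 1 FPKM in every 2CLC library, with 0.419, 0.18 and 0.359 FPKM, against 1.42, 1.59 and 1.99 FPKM in ESCs (-1.01 ± 0.102, adjusted p = 2.86e-06).

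The alanyl enzymes parted in size. Aars had 129, 136 and 127 FPKM in 2CLCs, against 162, 159.8 and 163 FPKM in ESCs, a log2 fold change of -0.31 ± 0.0416 (adjusted p = 3.8e-05) that was 0.50 under median-of-ratios scaling. Aars2 had 8.97, 10 and 8.97 FPKM in 2CLCs, against 20.4, 19.9 and 21.3 FPKM in ESCs, a log2 fold change of -1.06 ± 0.0946 (adjusted p = 1.03e-06) that was -0.32 under that scaling. In GENCODE M21, 1326 exonic bases of Aars (14.3%) lie on the same strand as exons of Exosc6, an exosome gene, so reads there could have been counted for either gene.

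EpiSCs differed from ESCs in both directions. Of the 37 genes, 12 were higher, against 33.2% of all genes tested, and 12 were lower, against 26.5%. Under median-of-ratios scaling 7 were higher, all of them among the 12, and 17 were lower. Of all 16358 genes tested, 4753 were then higher and 4871 lower. By compartment, on the deposited scale, 7 cytosolic genes were higher and 7 lower, and 5 mitochondrial genes were higher and 5 lower. Sars stood out, with 148, 162 and 169 FPKM in EpiSCs, against 63.9, 65.3 and 65.1 FPKM in ESCs. Each EpiSC library was above 2 times each ESC library, and the log2 fold change was 1.29 ± 0.077 (adjusted p = 8.42e-08). Sars was thus higher in EpiSCs and lower in 2CLCs than in ESCs.

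Nars2 had 4.01, 8.01 and 7.61 FPKM in EpiSCs, against 2.45, 2.57 and 2.71 FPKM in ESCs (1.03 ± 0.193, adjusted p = 0.000762). Its lowest EpiSC value is from replicate 1, the library that stands apart, and without it the log2 fold change was 1.30. Smaller rises were seen for Iars, with 109, 121 and 122 FPKM in EpiSCs and 84.1, 84.9 and 86.5 FPKM in ESCs (0.46 ± 0.06, adjusted p = 5.09e-05), and for Vars2, the mitochondrial valyl enzyme, with 13.1, 12.7 and 11.7 FPKM in EpiSCs and 8.78, 8.94 and 9.34 FPKM in ESCs (0.43 ± 0.0778, adjusted p = 0.000567). Gars had 177, 191 and 187 FPKM in EpiSCs and 150.1, 149.7 and 150 FPKM in ESCs (0.30 ± 0.046, adjusted p = 0.000176). None of these groups overlapped.

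Both alanyl enzymes were among the 5 largest falls in EpiSCs. Aars2 had 8.91, 10.8 and 10 FPKM in EpiSCs, against 20.4, 19.9 and 21.3 FPKM in ESCs (-0.98 ± 0.0946, adjusted p = 4.28e-06), which overlaps its 2CLC values. Aars had 107, 107 and 111 FPKM in EpiSCs, against 162, 159.8 and 163 FPKM in ESCs (-0.57 ± 0.0416, adjusted p = 4.41e-07). Farsa, the catalytic subunit of the cytosolic phenylalanyl enzyme, had 55.7, 63.5 and 61 FPKM in EpiSCs, against 96.8, 99.3 and 99.6 FPKM in ESCs (-0.71 ± 0.0674, adjusted p = 3.98e-06). Its groups were well apart. Hars2 had 11.1, 9.65 and 9.35 FPKM in EpiSCs, against 16, 14.6 and 15.5 FPKM in ESCs (-0.57 ± 0.0973, adjusted p = 0.000369). Cars2, the mitochondrial cysteinyl enzyme, had 9.4, 16.9 and 18.1 FPKM in EpiSCs, against 24.4, 24.3 and 23.8 FPKM in ESCs (-0.72 ± 0.18, adjusted p = 0.00489). Its low value is again replicate 1, and without that library the log2 fold change was -0.44 (adjusted p = 4.38e-05).

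**Figure D2:**
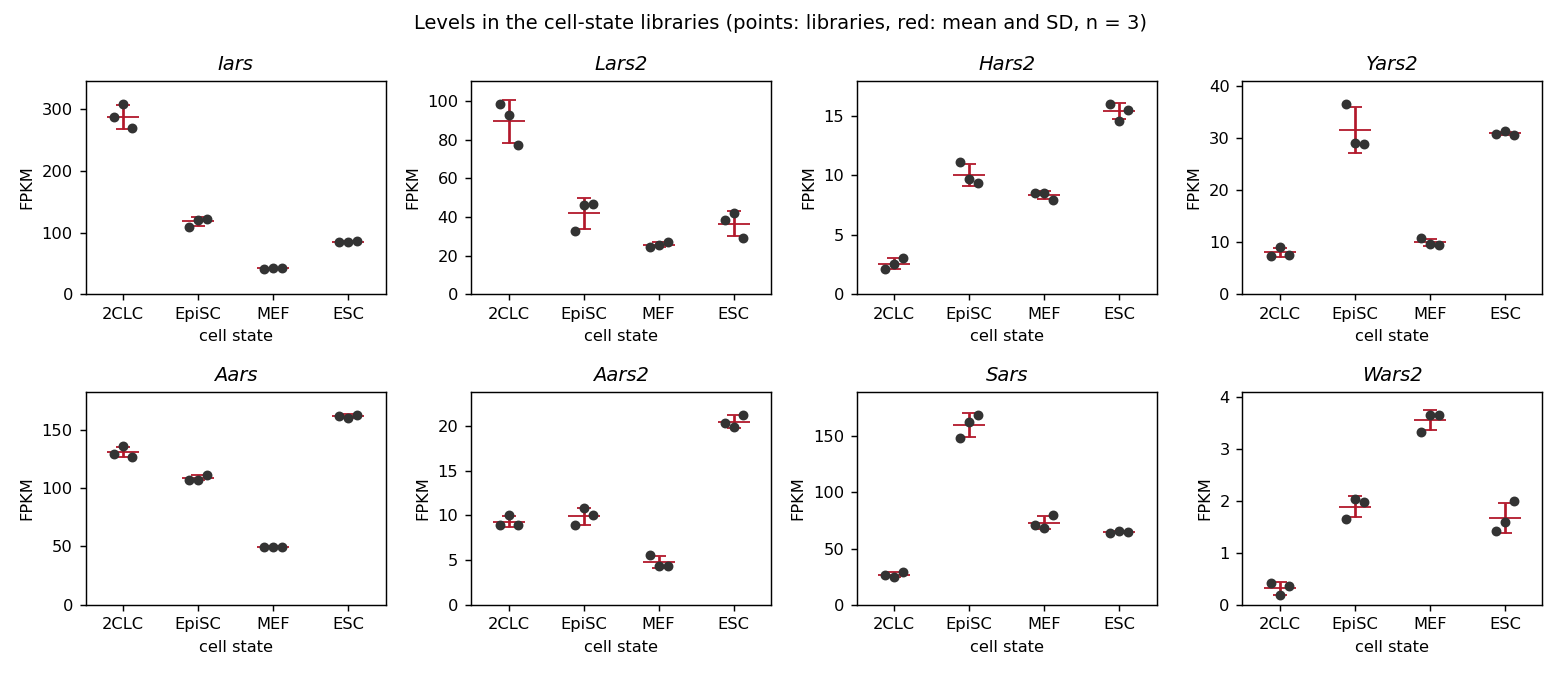
FPKM (y axis, from 0) of 8 synthetase genes in the 3 libraries each of 2CLCs, EpiSCs, MEFs and ESCs (x axis), with points for libraries and red marks for mean and SD. Iars and Lars2 are highest in 2CLCs, Sars in EpiSCs, Wars2 in MEFs and Aars and Aars2 in ESCs.

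MEFs had lower levels of nearly the whole family. Of the 37 genes, 32 were lower, against 40.9% of all genes tested, and 1 was higher, against 34.4%. The median log2 fold change was -0.97 for the synthetase genes and -0.07 for all genes, and 30 of the 32 falls were also called under median-of-ratios scaling. Of all 16358 genes tested, 5847 were lower and 6213 higher under that scaling. The cytosolic genes summed to 992, 1013 and 1036 FPKM in MEFs, against 1966, 1944 and 1995 FPKM in ESCs. The largest fall was that of Sars2, the mitochondrial seryl enzyme, with 5.24, 4.43 and 4.63 FPKM in MEFs, against 25.4, 25.5 and 27.1 FPKM in ESCs (-2.23 ± 0.0874, adjusted p = 6.68e-10). Kars had 74.2, 78.2 and 76.6 FPKM in MEFs, against 264, 259.6 and 269 FPKM in ESCs (-1.78 ± 0.0443, adjusted p = 1.62e-11). In both genes the highest MEF library lay far below the lowest ESC library.

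The alanyl enzymes were also among the 5 largest falls in MEFs. Aars had 49.4, 49.8 and 49.9 FPKM in MEFs, against 162, 159.8 and 163 FPKM in ESCs (-1.68 ± 0.0416, adjusted p = 1.55e-11). Aars2 had 5.53, 4.38 and 4.34 FPKM in MEFs, against 20.4, 19.9 and 21.3 FPKM in ESCs (-1.91 ± 0.0946, adjusted p = 5.08e-09). On the deposited scale, Aars ranked from ESCs down through 2CLCs and EpiSCs to MEFs without overlap, while the 2CLC and EpiSC values of Aars2 overlapped. Under median-of-ratios scaling Aars was higher in 2CLCs than in ESCs (0.50, adjusted p = 6.66e-07). The only gene called higher in MEFs on the deposited scale was Wars2, with 3.33, 3.66 and 3.66 FPKM in MEFs, against 1.42, 1.59 and 1.99 FPKM in ESCs (0.78 ± 0.102, adjusted p = 2.7e-05). The genes not called on that scale were Sars, Rars, Iars2 and Nars2. Sars was called higher under median-of-ratios scaling (0.37, adjusted p = 0.00156) and under quantile normalization (0.39, adjusted p = 0.00032). Sars had 70.8, 68.5 and 79.7 FPKM in MEFs and Rars, the arginyl enzyme, 87.5, 86.8 and 93 FPKM, against 63.9, 65.3 and 65.1 FPKM for Sars and 101, 95.1 and 100.2 FPKM for Rars in ESCs. Iars2 shares 2034 exonic bases (22.9%) with Rab3gap2 on the opposite strand, so its level may hold reads of that gene.

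In ESCs with 60 or 80 mM sodium lactate, transcripts of most cytosolic synthetases were lower by small amounts, as were some of the mitochondrial ones. At 60 mM, 21 of 37 genes were lower, against 18.6% of 13271 genes tested, and 1 was higher, against 23.5%. At 80 mM, 20 were lower, against 23.1%, and 1 was higher, against 30.0%. The falls at 80 mM were 20 of the 21 at 60 mM, and Cars2 was called at 60 mM alone. Both doses are set against the same 0 mM libraries, so these calls are not independent. Cytosolic genes were lower in 14 of 20 at each dose, with a median log2 fold change of -0.28 at 60 mM and -0.30 at 80 mM. Mitochondrial genes were lower in 7 of 17 at 60 mM and 6 of 17 at 80 mM, with medians of -0.08 and -0.09, against a median of 0.03 for all genes at each dose. In 13 of 18 pairs of a cytosolic gene and its mitochondrial counterpart, at each dose, the cytosolic log2 fold change was the lower of the pair. Some pairs share a gene, as Eprs is paired with both Ears2 and Pars2, and Fars2 with both Farsa and Farsb. A test of the difference between the compartments was not made. The summed level of 7 markers of the 2-cell-like state was 26.9 to 27.6 FPKM at 0 mM, 57 to 62.9 FPKM at 60 mM and 93.8 to 96.9 FPKM at 80 mM. Primed markers summed to 53.5 to 59.2 FPKM at 0 mM, 79.6 to 87.6 FPKM at 60 mM and 86.3 to 90.9 FPKM at 80 mM, and fibroblast markers to 0.705 to 1.01 FPKM at 0 mM, 3.16 to 3.87 FPKM at 60 mM and 4.49 to 4.78 FPKM at 80 mM. Of the 6 fibroblast markers, 1 had a mean of at least 1 FPKM at 60 and at 80 mM. Of the 5 primed markers, 3 reached that mean at 60 mM and 2 at 80 mM. Naive markers summed to 843 to 897 FPKM at 0 mM. Their sum was 883 to 927 FPKM at 60 mM and 905 to 934 FPKM at 80 mM. The part of these markers in the results was not tested.

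Cars, the cytosolic cysteinyl enzyme, had 52.7, 53.7 and 53.5 FPKM at 0 mM, 35.1, 35.1 and 34.6 FPKM at 60 mM and 36.3, 35 and 33.4 FPKM at 80 mM. Both doses were below every 0 mM library and overlapped each other, with log2 fold changes of -0.60 ± 0.0358 at each dose (adjusted p = 2.12e-06 at 60 mM and 8e-07 at 80 mM). Lars had 62.2, 64.7 and 64 FPKM at 0 mM, 45.4, 42.9 and 46 FPKM at 60 mM and 40.2, 41.4 and 39.5 FPKM at 80 mM. It fell at 60 mM (-0.50 ± 0.0367, adjusted p = 6.82e-06), and at 80 mM (-0.64 ± 0.0367, adjusted p = 5.88e-07), with no overlap between any of the 3 groups. Nars, the cytosolic asparaginyl enzyme, had 136, 137 and 134 FPKM at 0 mM, 98.9, 105 and 98.4 FPKM at 60 mM and 87, 90.6 and 90.3 FPKM at 80 mM (-0.42 ± 0.0324, adjusted p = 8.62e-06 at 60 mM, and -0.60 ± 0.0324, adjusted p = 4.36e-07 at 80 mM). These groups were also apart.

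Sars had 63.7, 69.3 and 70 FPKM at 0 mM, 48.5, 47.6 and 44.3 FPKM at 60 mM and 45.2, 49.7 and 47.6 FPKM at 80 mM, with log2 fold changes of -0.52 ± 0.0514 at 60 mM (adjusted p = 3.92e-05) and -0.50 ± 0.0514 at 80 mM (adjusted p = 2.46e-05). Among mitochondrial genes, Pars2, the prolyl enzyme, had 6.8, 6.83 and 6.58 FPKM at 0 mM, 4.12, 5.05 and 5.2 FPKM at 60 mM and 5.33, 4.11 and 4.12 FPKM at 80 mM, a fall at 60 mM (-0.42 ± 0.101, adjusted p = 0.00753) and at 80 mM (-0.50 ± 0.101, adjusted p = 0.0022). Yars2 had 19.2, 18.7 and 20.8 FPKM at 0 mM, 15, 14.5 and 15 FPKM at 60 mM and 13, 12.8 and 14.5 FPKM at 80 mM (-0.38 ± 0.058, adjusted p = 0.000607 at 60 mM, and -0.51 ± 0.058, adjusted p = 5.01e-05 at 80 mM). For these genes the lactate libraries lay below every 0 mM library, and the doses overlapped.

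The 2 rises were small. Dars, the cytosolic aspartyl enzyme, had 74, 76.1 and 70.8 FPKM at 0 mM, 78.2, 83.1 and 78 FPKM at 60 mM and 75, 74.1 and 71.4 FPKM at 80 mM, and was called at 60 mM (0.11 ± 0.0383, adjusted p = 0.0368). Without 60 mM replicate 2 it was not called (adjusted p = 0.133). Vars2 had 9.58, 12.7 and 9.06 FPKM at 0 mM, 11.2, 13.3 and 14.7 FPKM at 60 mM and 14.1, 11.8 and 15.1 FPKM at 80 mM. It was called at 80 mM (0.36 ± 0.134, adjusted p = 0.0447) although its groups overlapped. Under median-of-ratios scaling neither rise was called.

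Between the doses few genes differed. At 80 mM against 60 mM, 3 genes were lower, against 2.11% of all genes tested, and 0 were higher, against 4.06%. At an unadjusted p under 0.05 in limma, 8 were lower and 0 higher. Vars, the cytosolic valyl enzyme, had 72.5, 70.1 and 71.2 FPKM at 80 mM and 76.1, 77.7 and 77.6 FPKM at 60 mM. The 3 genes called lower at the adjusted p were Nars (-0.17 ± 0.0324, adjusted p = 0.0141), Lars (-0.15 ± 0.0367, adjusted p = 0.046) and Vars (-0.11 ± 0.0261, adjusted p = 0.0335). This count was 0 without 80 mM replicate 1. It was 1 without 80 mM replicate 2, 80 mM replicate 3, 60 mM replicate 1 or 60 mM replicate 3.

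The multi-synthetase complex split under lactate. Iars, Lars, Eprs (glutamyl-prolyl) and Mars1 (methionyl) were lower at both doses, while Dars, Kars, Qars and Rars were not on the deposited scale. Under median-of-ratios scaling Rars was lower at 80 mM (-0.11, adjusted p = 0.0144). Iars had 83.4, 81.7 and 83.4 FPKM at 0 mM, 64.8, 65.1 and 65.9 FPKM at 60 mM and 65, 68 and 64 FPKM at 80 mM (-0.34 ± 0.0303, adjusted p = 2.18e-05 at 60 mM, and -0.33 ± 0.0303, adjusted p = 1.17e-05 at 80 mM). Iars was thus lower with lactate and higher in 2CLCs. Eprs had 84.9, 86 and 87.8 FPKM at 0 mM, 77.9, 76.9 and 78.2 FPKM at 60 mM and 74.6, 72.8 and 68.7 FPKM at 80 mM. Kars had 248, 252 and 259 FPKM at 0 mM, 249, 262 and 259 FPKM at 60 mM and 252, 252 and 251 FPKM at 80 mM, and the 3 groups overlapped. Qars had 87.2, 95.8 and 95 FPKM at 0 mM, 88, 94.6 and 95.7 FPKM at 60 mM and 104, 97.7 and 88.1 FPKM at 80 mM, also with overlap. Of the scaffolds, Aimp1 was lower at 80 mM (-0.13, adjusted p = 0.00341), and no scaffold was called at 60 mM (1, higher, at an unadjusted p under 0.05 in limma). Under median-of-ratios scaling 2 scaffolds were lower at 80 mM. Outside the complex, 10 of 12 cytosolic genes were lower at each dose, the exceptions being Farsa and Hars. Of all genes tested, 18.6% were lower at 60 mM and 23.1% at 80 mM.

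**Figure D3:**
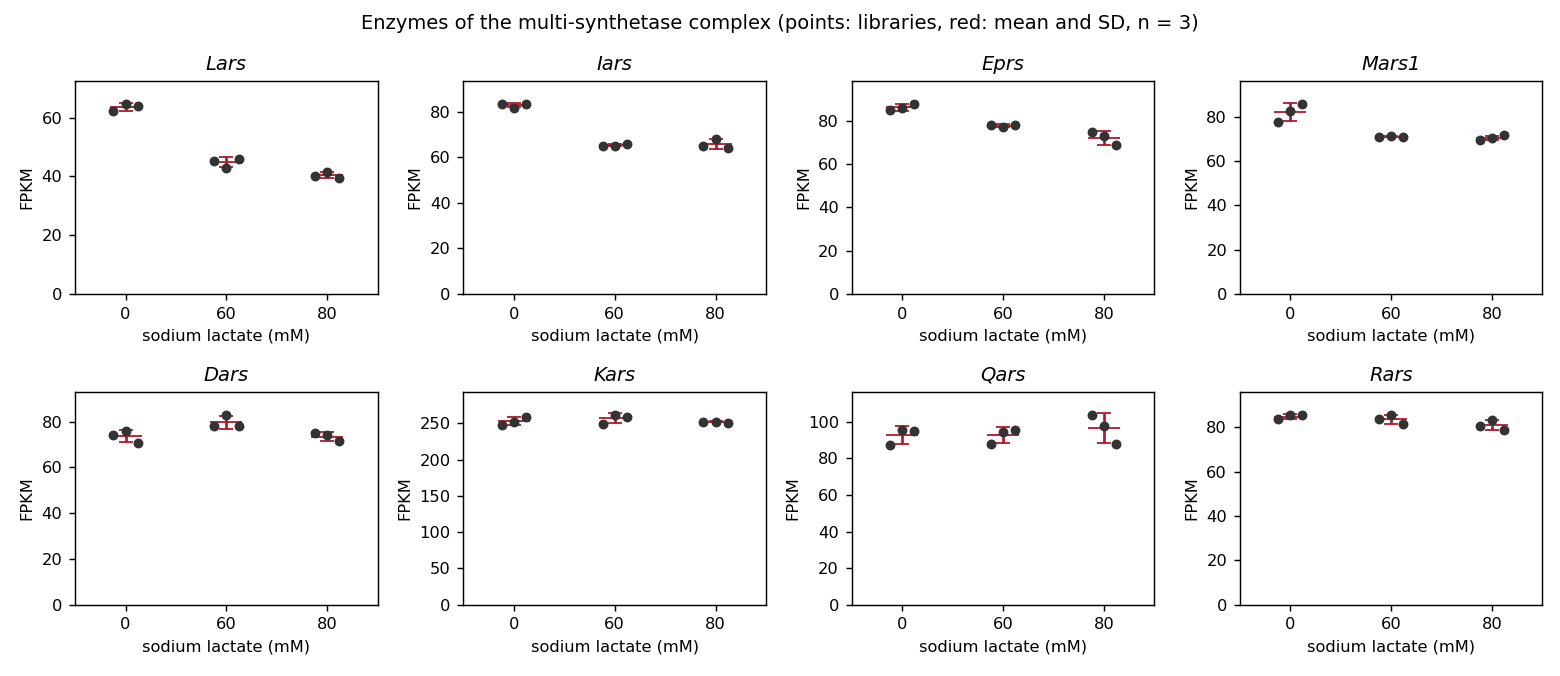
FPKM (y axis, from 0) of the 8 enzymes of the multi-synthetase complex in ESCs at 0, 60 and 80 mM sodium lactate (x axis), with points for the 3 libraries and red marks for mean and SD. Lars, Iars, Eprs and Mars1 (upper row) are lower at both doses, and Dars, Kars, Qars and Rars (lower row) were not called lower on this scale, though Rars was at 80 mM under median-of-ratios scaling.

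Aars had 169, 169 and 173 FPKM at 0 mM, 130.4, 132 and 131 FPKM at 60 mM and 127, 125 and 124 FPKM at 80 mM. It fell at 60 mM (-0.37 ± 0.0235, adjusted p = 2.86e-06) and at 80 mM (-0.44 ± 0.0235, adjusted p = 4e-07). Aars2 had 17, 17.6 and 17.7 FPKM at 0 mM, 15.9, 15.6 and 15.4 FPKM at 60 mM and 15.2, 15.1 and 15.4 FPKM at 80 mM. Its fall was smaller, -0.15 ± 0.0392 at 60 mM (adjusted p = 0.0132) and -0.18 ± 0.0392 at 80 mM (adjusted p = 0.0032). For both genes all lactate libraries were below all 0 mM libraries. The ratio of Aars to Aars2 within a library was 8.31 ± 0.204 over the 6 lactate libraries and 9.76 ± 0.137 over the 3 libraries at 0 mM (SD), with a two-sided exact permutation p of 0.0238, the smallest that 6 against 3 allows (adjusted over 14 ratio tests, p = 0.117). In the cell states it ran the other way, with 14.0 ± 0.435 in 2CLCs, 11.0 ± 1.06 in EpiSCs and 10.6 ± 1.45 in MEFs, against 7.87 ± 0.205 in ESCs (SD, n = 3 each), with a two-sided exact permutation p of 0.1 for each, the smallest that 3 against 3 allows.

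Subunits of the cytosolic phenylalanyl enzyme parted under lactate. Farsb, the partner subunit of Farsa, had 68.7, 65.5 and 63.2 FPKM at 0 mM, 53.8, 54.4 and 52.4 FPKM at 60 mM and 48.9, 51.5 and 49.9 FPKM at 80 mM (-0.29 ± 0.0377, adjusted p = 0.000208 at 60 mM, and -0.39 ± 0.0377, adjusted p = 1.8e-05 at 80 mM). Farsa was not called, with 109, 114 and 116 FPKM at 0 mM, 108, 113 and 108 FPKM at 60 mM and 113, 112 and 109 FPKM at 80 mM. Within a library the ratio of Farsa to Farsb was 2.13 ± 0.108 over the 6 lactate libraries and 1.73 ± 0.127 over the 3 libraries at 0 mM (SD), with a two-sided exact permutation p of 0.0238 (adjusted over the 14 ratio tests, p = 0.117). This pair was chosen after its values were seen. Farsb shares 248 exonic bases (9.47%) with Sgpp2 on the opposite strand.

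**Figure D4:**
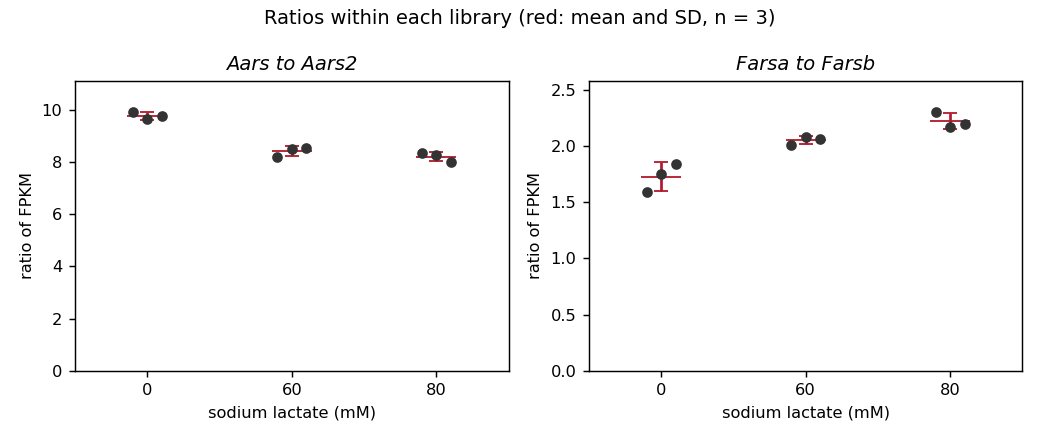
Ratio of FPKM within each library (y axis, from 0) of Aars to Aars2 and of Farsa to Farsb at 0, 60 and 80 mM sodium lactate (x axis), with points for the 3 libraries and red marks for mean and SD. The first ratio is lower and the second higher in all 6 lactate libraries than in all 3 libraries at 0 mM.

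The 5 genes with the promoter letters shown above were all lower at both doses, with a median log2 fold change of -0.34 at 60 mM and -0.33 at 80 mM. Of the 22 genes whose windows lack them, 10 were lower at 60 mM and 9 at 80 mM, with medians of -0.10 and -0.11. Among the 8 cytosolic genes whose windows lack them, 4 were lower at each dose. Cytosolic genes with no matched window stand in neither group. Of these, Cars, Lars, Nars, Vars and Wars were lower at both doses, and Hars and Rars were not called on the deposited scale. Of all genes tested, 18.6% were lower at 60 mM and 23.1% at 80 mM. In 2CLCs, 4 of the 5 were lower and Iars was higher, against 6 of the 8 cytosolic genes without the letters lower. Of all genes tested there, 56.4% were lower and 20.1% higher. Under median-of-ratios scaling Aars (0.50), Gars (0.39) and Iars (2.55) were higher, Yars (-0.57) was lower and Tars was not called. Of the 8, Kars, Mars1 and Qars were then higher and Farsa and Sars lower. In EpiSCs, 3 of the 5 were higher and 1 was lower, against 2 of the 8 higher and 5 lower. All genes tested were higher in 33.2% and lower in 26.5% there. In MEFs, 5 of the 5 and 7 of the 8 were lower, beside 40.9% of all genes tested. Besides Aars and Iars, the genes with the letters are Gars, Tars (threonyl) and Yars. Gars had 134, 132 and 143 FPKM at 0 mM, 106, 108 and 108 FPKM at 60 mM and 109, 108 and 109.9 FPKM at 80 mM. Tars had 59.1, 59 and 59.6 FPKM at 0 mM, 51, 51.1 and 50 FPKM at 60 mM and 51.9, 53.7 and 51.4 FPKM at 80 mM. Yars had 56.2, 58.6 and 59.5 FPKM at 0 mM, 46.9, 45.6 and 44.1 FPKM at 60 mM and 48.7, 43.9 and 44.2 FPKM at 80 mM. In each of the 3 genes, the lactate libraries lay below all 0 mM libraries.

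Other genes of the amino acid response were read from a list of 18 genes, Atf4 and its targets, of which 16 were tested in the lactate table. At 60 mM, 12 were lower and 0 higher, beside 18.6% and 23.5% of all genes tested. At an unadjusted p under 0.05 in limma 0 were higher at 60 mM too. At 80 mM, 11 were lower and 1, Cth, was higher, beside 23.1% and 30.0% of all genes tested. Under median-of-ratios scaling 13 were lower at 60 mM and 12 at 80 mM, with 0 higher at either dose. Of all 13271 genes, 2800 were lower at 60 mM and 3516 at 80 mM under that scaling. Nupr1, a stress-induced factor, had log2 fold changes of -1.71 at 60 mM (adjusted p = 5.6e-05) and -1.28 at 80 mM (adjusted p = 0.000198). Shmt2, a mitochondrial folate enzyme, fell by 0.64 at 60 mM (adjusted p = 9.1e-07) and by 0.66 at 80 mM (adjusted p = 3.41e-07), and Chac1, which degrades glutathione, by 0.57 (adjusted p = 0.0122) and 0.66 (adjusted p = 0.00401). Chac1 was near the filter of 1 FPKM. Its mean was 1.64 FPKM at 0 mM, 0.807 FPKM at 60 mM and 0.68 FPKM at 80 mM. Slc7a5, the large neutral amino acid transporter, fell by 0.51 at 60 mM (adjusted p = 8e-06) and by 0.57 at 80 mM (adjusted p = 1.73e-06). Asns, the asparagine synthetase gene, was not called at either dose. In 2CLCs, 11 of 17 listed genes were lower and 1 higher, beside 56.4% of all genes tested that were lower and 20.1% that were higher there. Under median-of-ratios scaling 5 were lower and 7 higher, where 5122 of 16358 genes were lower and 6213 higher. On the deposited scale the lower listed genes include Trib3 at -2.57 (adjusted p = 1.63e-06) and the cationic amino acid transporter Slc7a1 at -2.49 (adjusted p = 4.39e-09). The listed gene that was higher on that scale is Asns (0.99, adjusted p = 1.32e-09). In EpiSCs, 6 of 17 were higher and 5 lower, beside 33.2% and 26.5% of all genes. In MEFs, 5 were higher and 12 lower, beside 34.4% and 40.9%.

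Partners of the synthetases, a list of 10 genes for deacylases that proofread tRNA, a threonyl synthetase-like protein, a tRNA exporter and mitochondrial enzymes that act on charged tRNA, were read beside them. In 2CLCs 8 of 10 were lower, where 56.4% of all genes were and the median of all genes was -0.46. Under median-of-ratios scaling 5 were lower and 4 higher, where 5122 of 16358 genes were lower and 6213 higher. The largest falls on the deposited scale were those of Xpot, the tRNA exporter (-2.10, adjusted p = 5.62e-09), Qrsl1, a subunit of the mitochondrial glutamyl-tRNA amidotransferase (-1.69, adjusted p = 1e-08), Dtd1, a deacylase (-1.27, adjusted p = 1.74e-07), and Gatc, another amidotransferase subunit (-1.21, adjusted p = 9.4e-08). With lactate, 5 were lower and 2 higher at each dose, beside 18.6% of all genes lower and 23.5% higher at 60 mM and 23.1% lower and 30.0% higher at 80 mM. The 2 higher genes were Dtd2, a deacylase (0.42, adjusted p = 0.00733 at 60 mM, and 0.50, adjusted p = 0.00186 at 80 mM), and Mtfmt, which formylates the mitochondrial initiator methionyl-tRNA (0.38, adjusted p = 0.0273 at 60 mM, and 0.52, adjusted p = 0.00401 at 80 mM).

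Lars2 is described beside a ribosomal RNA entry that stood apart in the same library as it did. It had 98.7, 93 and 77.3 FPKM in 2CLCs, against 38.7, 41.9 and 29.1 FPKM in ESCs (1.28 ± 0.159, adjusted p = 1.77e-05). A ribosomal RNA entry, CT010467.1, had 1502, 1453 and 1448 FPKM in 2CLCs and 1260.2, 1385 and 881 FPKM in ESCs, and the small nuclear RNA Rn7sk had 51.9, 44.9 and 68.4 FPKM in 2CLCs and 3.24, 2.93 and 2.17 FPKM in ESCs. All 3 were at their lowest in ESC replicate 3 among the ESC libraries. The ratio of Lars2 to CT010467.1 was 0.0534 to 0.0657 in 2CLCs and 0.0302 to 0.033 in ESCs, without overlap. In EpiSCs the entry was lower than in ESCs, with 612, 791 and 753 FPKM (-0.69, adjusted p = 0.00204), while Lars2, with 32.8, 46.4 and 46.5 FPKM, was not called, and the ratio was 0.0536 to 0.0618.

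With lactate, Lars2 had 20.1, 17 and 18.3 FPKM at 0 mM, 71.2, 23.3 and 23 FPKM at 60 mM and 17.6, 22 and 19.4 FPKM at 80 mM. The high value is 60 mM replicate 1, which also stood apart in CT010467.1, with 3068 FPKM against 774 and 711 FPKM in the other 60 mM libraries, and in Rn7sk, with 27.3 FPKM against 1.71 and 1.26 FPKM. Lars2 was not called at 60 mM (0.84 ± 0.344, adjusted p = 0.0751), and without replicate 1 the log2 fold change was 0.31 (adjusted p = 0.0267). It was also called without replicate 2 (1.10, adjusted p = 0.0391) and without replicate 3 (1.11, adjusted p = 0.0362). The ratio of Lars2 to CT010467.1 was 0.0232 to 0.0326 in all 9 libraries of the lactate table. The part of ribosomal RNA in the Lars2 values was not tested. Summed without Lars2, the mitochondrial genes were exceeded by the cytosolic ones 12.3 to 13.2 times in 2CLCs, 8.3 to 8.59 times in EpiSCs and 9.02 to 9.85 times in MEFs, against 7.83 to 8.13 times in ESCs. With lactate this ratio was 7.78 to 7.91 at 0 mM, 7.32 to 7.69 at 60 mM and 7.29 to 7.8 at 80 mM.

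**Figure D5:**
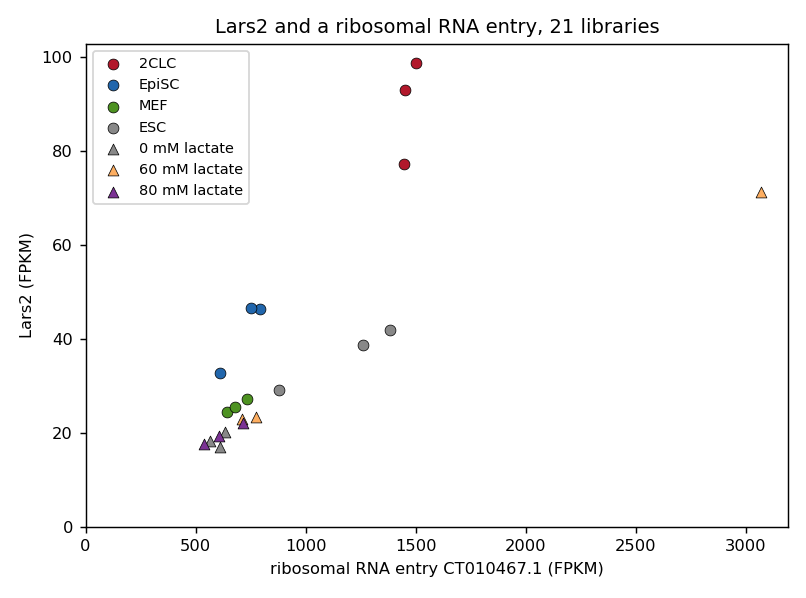
Lars2 (y axis, FPKM) against the ribosomal RNA entry CT010467.1 (x axis, FPKM) in the 21 libraries, circles for cell states and triangles for lactate. The 60 mM replicate 1 lies far to the right at 3068 and 71.2 FPKM, and the 3 2CLC libraries lie above the ESC libraries.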

How the data were processed

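Per the labels' protocols, extraction used Trizol, a TruSeq RNA kit gave the libraries, and a MiSeq instrument read them. HISAT2 2.0.4, StringTie 2.1.4 and the build mm10 are named in the submitters' processing notes. The authors deposited FPKM values in separately normalized tables for cell states and for lactate. The authors' annotation and the depth per library are not given in the sources used here, so no counting intervals are given.

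Values were taken as log2(FPKM + 1), with a pseudocount of 1, and a gene was tested where 3 or more libraries of its table reached 1 FPKM. limma 3.58.1 in R 4.3.3 was fitted with all groups of a table together, moderated variances with a mean trend, and Benjamini-Hochberg adjustment within each comparison at a threshold of 0.05. The pipeline was tested on simulated data. Ratios within a library were compared by exact permutation in scipy 1.17.1. Python 3.11.15 and matplotlib 3.10.9 were used for tables and figures. Replicate numbers were checked for pairing: correlations of same-numbered deviations were -0.0302 to 0.0717, so the numbers were not taken to pair samples.

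All members may be named, except for 1 that is counted among the members but not reported here; Aars, Aars2 and up to 5 called rises and 5 called falls per comparison are given in every library, and up to 4 called genes per companion list. Other genes given per library, such as Kars, Qars, Farsb and Rn7sk, and the ribosomal RNA entry, were chosen after their values were seen. The members and lists were chosen with earlier results of these data known. Exon overlaps are from GENCODE M21 and promoters from RefSeq. Alternatives were other pseudocounts, filters, scalings and fits, a replicate block and leaving out each library.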

Additional observations from a re-analysis of the deposited data

How the results depend on the processing

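Over 134 called values of single genes and 2090 alternative values, 1987 kept direction and call, 85 kept direction but lost the call and 18 reversed. Median-of-ratios scaling accounts for most of the reversals: in 2CLCs it gave log2 fold changes of 0.50 for Aars, 0.23 for Cars, 0.16 for Dars, 0.25 for Ears2, 0.03 for Eprs, 0.39 for Gars, 0.40 for Hars, 0.07 for Iars2, 0.34 for Mars1, 0.12 for Nars, 0.06 for Rars, 0.04 for Sars2, 0.14 for Tars, 0.07 for Tars2, 0.47 for Vars and 0.17 for Vars2, and in MEFs 0.02 for Hars, which quantile normalization gave as 0.03. A reversal here is a change of sign, called or not. Of the genes listed for 2CLCs, Aars, Cars, Gars, Hars, Mars1 and Vars were then called higher, and the others were not called. Hars in MEFs was not called under median-of-ratios scaling or quantile normalization. Median-of-ratios scaling counted 12 genes higher and 12 lower in 2CLCs and 7 higher in EpiSCs. The number higher in MEFs was 0 with a filter of 5 FPKM and 2 with median-of-ratios scaling, quantile normalization, only the compared groups, the replicate block, or the shared spread taken without EpiSC replicate 1, an alternative chosen after seeing the data. The number higher at 60 mM was 0 with no filter, median-of-ratios scaling, no mean trend and only the compared groups. At 80 mM it was 0 with no filter, either scaling, no mean trend and the replicate block. The number lower at 80 against 60 mM was 0 with no mean trend and 1 with only the compared groups or the replicate block. Leaving out each library in turn gave 2 genes higher and 32 lower in 2CLCs, 9 to 13 higher and 10 to 13 lower in EpiSCs, 1 to 2 higher and 31 to 32 lower in MEFs, 0 to 3 higher and 19 to 21 lower at 60 mM, 0 to 1 higher and 19 to 20 lower at 80 mM, and 0 higher and 0 to 3 lower at 80 against 60 mM. The cause of these differences was not tested. Depth is unknown, so the precision of the lowest genes, such as Wars2 and Mars2, cannot be given.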

Other observations

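Genes near Iars were read in 2CLCs, where the median log2 fold change of all genes was -0.46. Nol8 had 20.8 ± 0.574 FPKM in 2CLCs and 26.7 ± 0.216 FPKM in ESCs, and Cenpp had 11.9 ± 1.27 FPKM in 2CLCs and 17.8 ± 1.01 FPKM in ESCs (SD, n = 3 each). Ogn was under 1 FPKM in every library of both, with 0.301, 0.161 and 0.233 FPKM in 2CLCs and 0.0379, 0.0208 and 0.109 FPKM in ESCs. These genes were chosen after the values of Iars were seen.

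Synthetases fall into 2 classes by the fold of the catalytic domain. Of 18 genes for class I enzymes, 10 were lower at 60 mM and 9 at 80 mM, and of 18 for class II enzymes, 10 were lower at each dose, beside 18.6% of all genes at 60 mM and 23.1% at 80 mM. In EpiSCs, 6 class I genes were higher and 3 lower, and 6 class II genes were higher and 8 lower, beside 33.2% of all genes higher and 26.5% lower. A test of the difference between the classes was not made.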
